A study of Mus musculus with 4 samples.

Results

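Red cells carry carbon dioxide, water, urea, nucleosides and glucose across their membrane with a small set of enzymes and channels, and 7 genes of that set are described here in fetal liver: the carbonic anhydrases Car1 and Car2, the water channels Aqp1 and Aqp9, the urea channel Slc14a1, the nucleoside transporter Slc29a1 and the glucose transporter Slc2a1. They were chosen by gene symbol, with no cut on their measured values but with earlier results of these data known, as 7 of 22011 genes. Each is represented by its transcript of highest read count, summed over the 4 libraries. Total RNA of fetal liver cells, depleted of ribosomal RNA, was sequenced in hnRNP L knockout mice (KO, n = 2) and in mice labelled wild type (WT, n = 2). hnRNP L is an RNA-binding protein that acts on exon choice. No treatment is given for either group. The labels' protocols name C57BL/6, LckCre transgenic, CD45.1 and tdTomato/EGFP reporter mice as held by the institute, without saying which of these lines the embryos came from. The sources used here do not give embryonic age, litter, the kind of deletion or the cell types it affects.

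Carbonic anhydrases turn carbon dioxide and water into bicarbonate and a proton and back, and in red cells the bicarbonate leaves through the anion exchanger encoded by Slc4a1. Aquaporins are pores for water, some of which also pass glycerol and other small solutes. In fetal mice the liver is the main site of red cell formation, and it also holds hepatocytes, endothelial cells, megakaryocytes and other blood cells, so that each of these genes can be read from more than 1 cell type.

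The file headers give 97490949 and 96260423 mapped reads for the KO libraries and 70020061 and 111324295 for the WT libraries. Hnrnpl, the targeted gene, had 280 and 269 counts per 1000000 reads (CPM) in KO and 460 and 603 CPM in WT, and fell to 0.516 of WT (log2 fold change -0.95, SE 0.16; edgeR quasi-likelihood test, adjusted p = 0.0114). KO replicate 2 stood apart in its sex-linked transcripts, with 336 reads of Xist and 2839 of Ddx3y, while the other 3 libraries had at least 31498 reads of Xist and at most 14 of Ddx3y. The erythroid marker list, which checks the tissue for red cell precursors, was well expressed, with summed levels of 15670 and 12490 CPM in KO and 24860 and 23610 CPM in WT. Of its 22 tested genes 17 were lower and 0 higher in KO by the edgeR test, with a median log2 fold change of -0.76, and the count of lower genes was 9 or 8 with WT replicate 1 or 2 left out and 7 with KO replicate 2 left out. Over the same libraries hepatocyte markers summed to 94670 and 77640 CPM in KO and 61980 and 44830 CPM in WT, with 7 of 19 higher (11 with WT replicate 1 left out, 3 with WT replicate 2 left out, 16 with no filter on low counts and 19 with the replicate block), and endothelial markers to 1036 and 1082 CPM in KO and 674 and 723 CPM in WT, with 7 of 15 higher (4 with WT replicate 1 or KO replicate 2 left out). In such bulk RNA, fewer cells of a type and less RNA per cell cannot be told apart.

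The sequences shown first are the stretch of Slc29a1 that its splice forms add or leave out, and the DNA before the starts of Aqp1 and Slc2a1, for which the table used held 1 start each. Slc29a1 has a coding exon with paired donor sites 6 bases apart, at chr17:45588996-45589074 in the longer and chr17:45589002-45589074 in the shorter form (GRCm38, minus strand), which makes the exon 79 or 73 bases long and keeps the reading frame. The sequences run across the joint with the next exon in the GENCODE vM21 transcripts, 5′ to 3′, with the added bases in capitals.
Slc29a1 longer form: agttggatctcataaGTAAAGgagaggagc
Slc29a1 shorter form: agttggatctcataagagaggagc

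Promoters were read from RefSeq (GRCm38.p6) as the 250 bases before a transcription start, and 12 of them belonged to Aqp1, Aqp9, Slc29a1 and Slc2a1. They were searched on both strands for CCNCNCCC, the letters bound by erythroid Krüppel-like factor KLF1, and for AGATAA and TGATAA, letters bound by GATA factors. The Aqp1 promoter lies at chr6:55336049-55336298 (plus strand), with CCNCNCCC from 248 to 241, 190 to 183 and 37 to 30 bases before the start. The Slc2a1 promoter lies at chr4:119108495-119108744 (plus strand), with overlapping matches from 22 to 15 and 20 to 13 bases before the start. The matches are in capitals.
Aqp1 promoter: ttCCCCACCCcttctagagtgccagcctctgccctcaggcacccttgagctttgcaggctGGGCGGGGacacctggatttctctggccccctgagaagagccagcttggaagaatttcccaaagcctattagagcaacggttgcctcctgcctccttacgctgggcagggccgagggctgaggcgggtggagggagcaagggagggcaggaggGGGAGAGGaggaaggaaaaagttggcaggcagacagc
Slc2a1 promoter: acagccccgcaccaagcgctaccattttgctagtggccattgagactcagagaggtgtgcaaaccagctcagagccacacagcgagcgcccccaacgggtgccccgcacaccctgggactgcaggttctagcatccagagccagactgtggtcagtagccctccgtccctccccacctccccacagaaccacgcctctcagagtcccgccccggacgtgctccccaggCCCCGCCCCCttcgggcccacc
Of the 12 promoters 8 are starts of Slc29a1 alone, and they are not independent. No promoter was matched for Car1, Car2 or Slc14a1, so none of these genes was searched. CCNCNCCC was found in 11 of the 12, all 8 of Slc29a1 among them, AGATAA in 1, which belonged to Slc29a1, and TGATAA in 1, which belonged to Aqp9. Over all 32851 promoters of this length, 45.9% held CCNCNCCC, 9.99% AGATAA and 7.94% TGATAA. These are matches of letters only, and binding was not measured.

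Across the 7 genes, Aqp1 and Car2 fell in KO, to 0.502 and 0.540 of WT, and the other 5 did not pass the threshold of an adjusted p under 0.05. All 7 had KO libraries that did not overlap the WT libraries, 6 of them below WT and Car1 above it. Over all 15028 genes tested, 20.8% passed the edgeR test, 9.44% as lower and 11.4% as higher, against 28.6% of the 7 members, and 65.2% had groups that did not overlap, 31.7% with KO below WT and 33.5% with KO above. The median log2 fold change was -0.44 over the 7 members and 0.017 over all genes tested. All 7 directions held under each of 11 alternative fits. At 2 libraries a group the smallest two-sided p of an exact permutation test is 0.33, and each call therefore uses edgeR's estimate of spread, shared across genes.

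**Figure D1:**
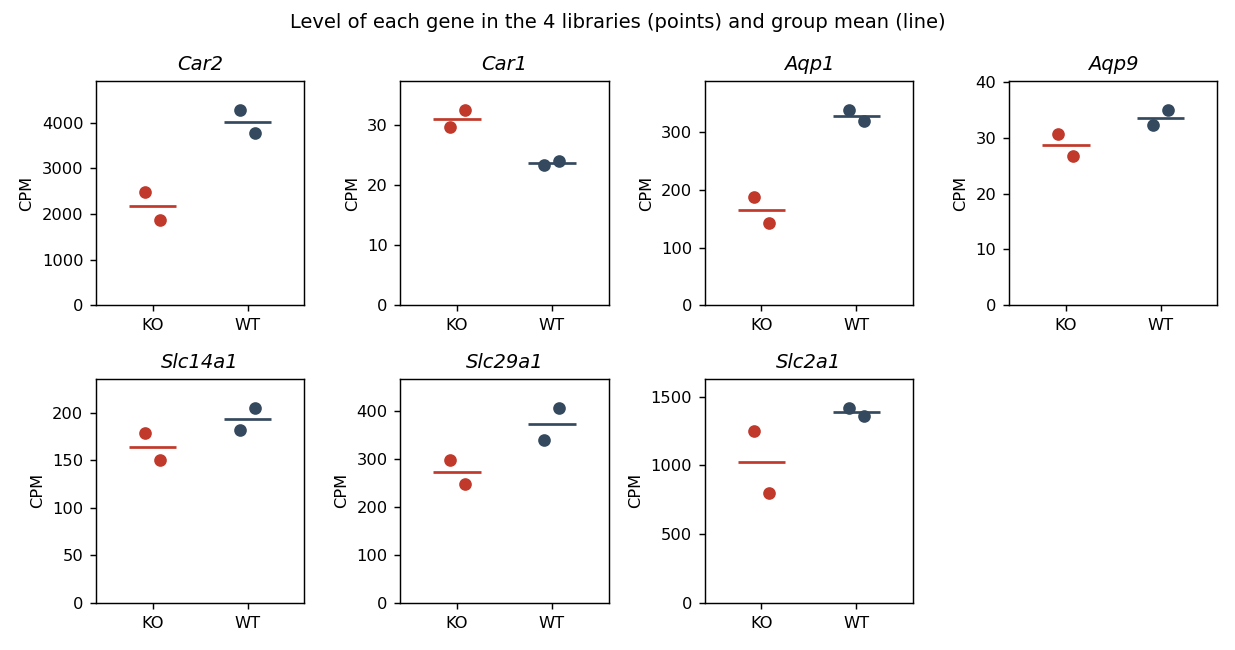
Level of each of the 7 genes in CPM (vertical axes, each from 0) in the 2 KO and 2 WT libraries, with points for libraries and lines for group means. KO points lie below WT points in every panel but that of Car1, where 29.7 and 32.5 CPM in KO lie above 23.4 and 24.1 CPM in WT.

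Car2 encodes carbonic anhydrase II, the fast enzyme of the red cell cytosol. It was the most abundant of the 7 genes per length, at 680 and 556 RPKM (reads per kilobase of transcript, scaled to mapped reads) in KO and 1100 and 1052 RPKM in WT, and ranked 53 and 55 among all genes in KO and 32 and 39 in WT. On the CPM scale it had 2479 and 1868 in KO and 4270 and 3773 in WT. Both KO libraries were below both WT libraries by a wide margin. The means were 2173 ± 432 CPM in KO and 4021 ± 351 CPM in WT (SD, n = 2 each), and the level fell (log2 fold change -0.89, SE 0.20; edgeR quasi-likelihood test, adjusted p = 0.0248). Leaving out WT replicate 1 (log2 fold change -0.80, edgeR adjusted p = 0.0843), WT replicate 2 (-0.97, adjusted p = 0.0605) or KO replicate 2 (-0.70, adjusted p = 0.0762) ended the call. Reads across its 6 known splice junctions came to 2002 and 1843 per 1000000 known junction reads in KO and 3518 and 2784 in WT, a ratio of 0.610.

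Car1, the low-activity carbonic anhydrase I, lies on chromosome 3 from 14766214 to 14808365 on the minus strand, 78061 bases from Car2 at 14886426 to 14900770 on the plus strand, with Car3 between them (coordinates as in the deposited tables, of a genome build that the sources used here do not name). Car1 had 29.7 and 32.5 CPM in KO and 23.4 and 24.1 CPM in WT. It was the 1 member with both KO libraries above both WT libraries. Its means of 31.1 ± 1.99 CPM in KO and 23.8 ± 0.494 CPM in WT (SD, n = 2 each) differed by 0.39 on the log2 scale (SE 0.12), which did not pass (edgeR adjusted p = 0.0573). Over the alternatives its adjusted p ran between 0.0386 and 0.216, and it passed with upper quartile scaling, with no filter on low counts and with the replicate number as a block. Junction reads had the same direction, at 45.9 and 60.5 per 1000000 in KO and 28.9 and 35.6 in WT.

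Per length, the ratio of the pair was lower in both KO libraries than in both WT libraries. The RPKM of Car2 was 55.8 and 38.4 times that of Car1 in KO and 121.9 and 104.6 times in WT. Car1 made up 1.76% and 2.54% of their summed RPKM in KO and 0.814% and 0.947% in WT. Car2 remained far above Car1 in all 4 libraries.

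Among 11 other carbonic anhydrase genes that passed the filter, of 14 listed, 0 passed the edgeR test in either direction, with 7 at an unadjusted p under 0.05. DESeq2 called 1 as higher and limma voom 2, and by edgeR 3 were higher with WT replicate 1 left out or with the replicate block and 5 with no filter on low counts. Their median log2 fold change was 0.59, and 8 estimates were above 0. Car3, the muscle, fat and liver enzyme that lies between Car1 and Car2, had 124 and 118 CPM in KO and 85.6 and 40.8 CPM in WT (log2 fold change 0.94, SE 0.29, edgeR adjusted p = 0.0565). Car14, a membrane-bound enzyme, had 14.3 and 15.2 CPM in KO and 11.3 and 7.90 CPM in WT. Car13, a cytosolic enzyme, had 8.54 and 7.31 CPM in KO and 10.4 and 10.9 CPM in WT, the only 1 of the 11 with KO wholly below WT. The summed level of the 11 was 182 and 162 CPM in KO and 124 and 72.1 CPM in WT, with the hepatocyte markers higher in KO as given above. The part of other cell types in these values was not tested.

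Aqp1, the main water channel of the red cell membrane and the carrier of the Colton blood group in humans, had the lowest fold change of the 7. It had 188 and 142 CPM in KO and 338 and 319 CPM in WT. The groups were well apart, with the higher KO library far below the lower WT library. The means were 165 ± 32.4 CPM in KO and 329 ± 13.3 CPM in WT (SD, n = 2 each), and the level fell (log2 fold change -0.99, SE 0.16; edgeR quasi-likelihood test, adjusted p = 0.010). The call held in all 11 alternatives, with log2 fold changes of -1.21 to -0.81 and adjusted p up to 0.0325. Reads across its 3 known junctions were at 110 and 81.3 per 1000000 in KO and 220 and 141 in WT, a ratio of 0.531. Aqp1 is also a gene of endothelial cells, whose summed markers were higher in KO, and their part in its level was not tested.

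Aqp9 encodes a channel for water, glycerol and urea known from mouse hepatocytes and red cells. It was at 5.71 and 5.38 RPKM in KO and 5.63 and 6.59 RPKM in WT, the lowest of the 7 per length in each library. In CPM it had 30.7 and 26.7 in KO and 32.3 and 34.9 in WT. The groups did not overlap in CPM, though the nearest libraries were close, and they did overlap in RPKM. Means of 28.7 ± 2.85 CPM in KO and 33.6 ± 1.88 CPM in WT (SD, n = 2 each) gave a log2 fold change of -0.23 (SE 0.13, edgeR adjusted p = 0.2305), and it passed in 0 of 11 alternatives. The RPKM of Aqp1 was 5.86 and 5.10 times that of Aqp9 in KO and 10.04 and 8.76 times in WT.

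Of 5 other aquaporins that passed the filter, of 10 listed, 2 were higher and 0 lower in KO. Aqp8, a channel of hepatocytes, had 20.7 and 16.5 CPM in KO and 10.3 and 7.15 CPM in WT (2.15-fold, edgeR adjusted p = 0.0163), and did not pass when WT replicate 2 was left out (edgeR adjusted p = 0.0611). Aqp7, a glycerol channel, had 4.28 and 5.15 CPM in KO and 2.48 and 2.47 CPM in WT (1.91-fold, edgeR adjusted p = 0.0305), and this call was lost whichever library was left out (edgeR adjusted p of 0.0506 to 0.152). Aqp3, a channel of water and glycerol, overlapped between the groups, with 38.6 and 28.5 CPM in KO and 25.5 and 31.4 CPM in WT. The median over the 5 was 0.42. Hepatocyte markers, summed above, moved with Aqp8, and their part in it was not tested.

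Slc14a1, the urea channel UT-B that carries the Kidd blood group in humans, had 178 and 151 CPM in KO and 182 and 205 CPM in WT. The highest KO library nearly met the lowest WT library in CPM, and the groups overlapped in RPKM, at 22.6 and 20.7 in KO and 21.7 and 26.4 in WT. Its means were 165 ± 19.6 CPM in KO and 194 ± 16.1 CPM in WT (SD, n = 2 each), with a log2 fold change of -0.24 (SE 0.13, edgeR adjusted p = 0.234), and it passed in 0 of 11 alternatives. Its neighbour Slc14a2, the kidney urea transporter, was at a low level, with 1.23 and 1.01 CPM in KO and 0.464 and 0.360 CPM in WT (2.75-fold, edgeR adjusted p = 0.0492), a call lost whichever library was left out (edgeR adjusted p of 0.111 to 0.211).

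Slc29a1 encodes ENT1, the main carrier of nucleosides across the red cell membrane and the carrier of the Augustine blood group in humans. It had 299 and 248 CPM in KO and 340 and 407 CPM in WT. KO lay below WT without overlap. The means were 274 ± 36.2 CPM in KO and 374 ± 47.4 CPM in WT (SD, n = 2 each), at a log2 fold change of -0.45 (SE 0.15) that did not pass (edgeR adjusted p = 0.0752). It passed with no filter on low counts (edgeR adjusted p = 0.0330) and in the DESeq2 Wald test (adjusted p = 0.0215), and its adjusted p ran up to 0.33 when 1 library was left out.

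Of 6 other urea and nucleoside transporters that passed the filter, of 7 listed, 2 were higher and 0 lower: Slc14a2, and Slc29a2, the second equilibrative carrier, with 6.94 and 7.06 CPM in KO and 4.15 and 4.73 CPM in WT (1.57-fold, edgeR adjusted p = 0.0476). The Slc29a2 call was lost whichever library was left out (edgeR adjusted p of 0.0933 to 0.153). Enzymes that salvage nucleosides inside the cell had 3 of 8 lower and 0 higher, with a median of -0.23. Dck, deoxycytidine kinase, had 108 and 95.5 CPM in KO and 186 and 203 CPM in WT (0.523 of WT, edgeR adjusted p = 0.00701). Tk1, thymidine kinase of dividing cells, had 54.0 and 45.5 CPM in KO and 99.2 and 88.5 CPM in WT (0.530 of WT, edgeR adjusted p = 0.00798). Hprt, which salvages purine bases, was at 0.693 of WT (edgeR adjusted p = 0.0235), and did not pass when WT replicate 2 or either KO library was left out, with adjusted p up to 0.114. Adk, adenosine kinase, had 121 and 131 CPM in KO and 128 and 150 CPM in WT, and overlapped.

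Slc2a1 encodes GLUT1, the glucose transporter of fetal mouse red cells and of many other cells. It was second in abundance per length among the 7, at 238 and 165 RPKM in KO and 254 and 264 RPKM in WT. In CPM it had 1248 and 798 in KO and 1418 and 1363 in WT. KO replicate 2 was far below the other libraries, and KO replicate 1 lay close under WT. The means were 1023 ± 318 CPM in KO and 1390 ± 39.5 CPM in WT (SD, n = 2 each), at a log2 fold change of -0.44 (SE 0.22, edgeR adjusted p = 0.190). It was -0.80 when KO replicate 1 was left out (edgeR adjusted p = 0.0228) and -0.16 when KO replicate 2 was (edgeR adjusted p = 0.592), so that the size of the difference rested on KO replicate 2.

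Of 10 other glucose transporters that passed the filter, of 11 listed, 2 were higher and 1 lower in KO, with a median of 0.57. Slc2a4, which encodes GLUT4 and in mice replaces GLUT1 on red cells after birth, had 38.7 and 29.2 CPM in KO and 66.1 and 58.7 CPM in WT (0.543 of WT, edgeR adjusted p = 0.0127), and passed with any 1 library left out (adjusted p up to 0.0418). Slc2a2, the GLUT2 of hepatocytes, had 109 and 93.6 CPM in KO and 67.2 and 50.7 CPM in WT (1.72-fold, edgeR adjusted p = 0.0170), and did not pass when WT replicate 2 was left out (edgeR adjusted p = 0.0611). Hepatocyte markers moved with Slc2a2 as well. Slc2a3, the GLUT3 of neurons, platelets and white cells, had 148 and 129 CPM in KO and 83.9 and 103 CPM in WT (1.48-fold, edgeR adjusted p = 0.0281), and did not pass when WT replicate 1 or either KO library was left out, with adjusted p up to 0.120. Megakaryocyte markers moved with Slc2a3, with 10 of 12 higher in KO. Their sums were 1344 and 1131 CPM in KO and 694 and 748 CPM in WT. Fewer of these markers were called higher when either WT library or KO replicate 1 was left out. Their median log2 fold change ran between 0.86 and 1.03 with 1 library left out. The part of neither marker list in these values was tested.

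**Figure D2:**
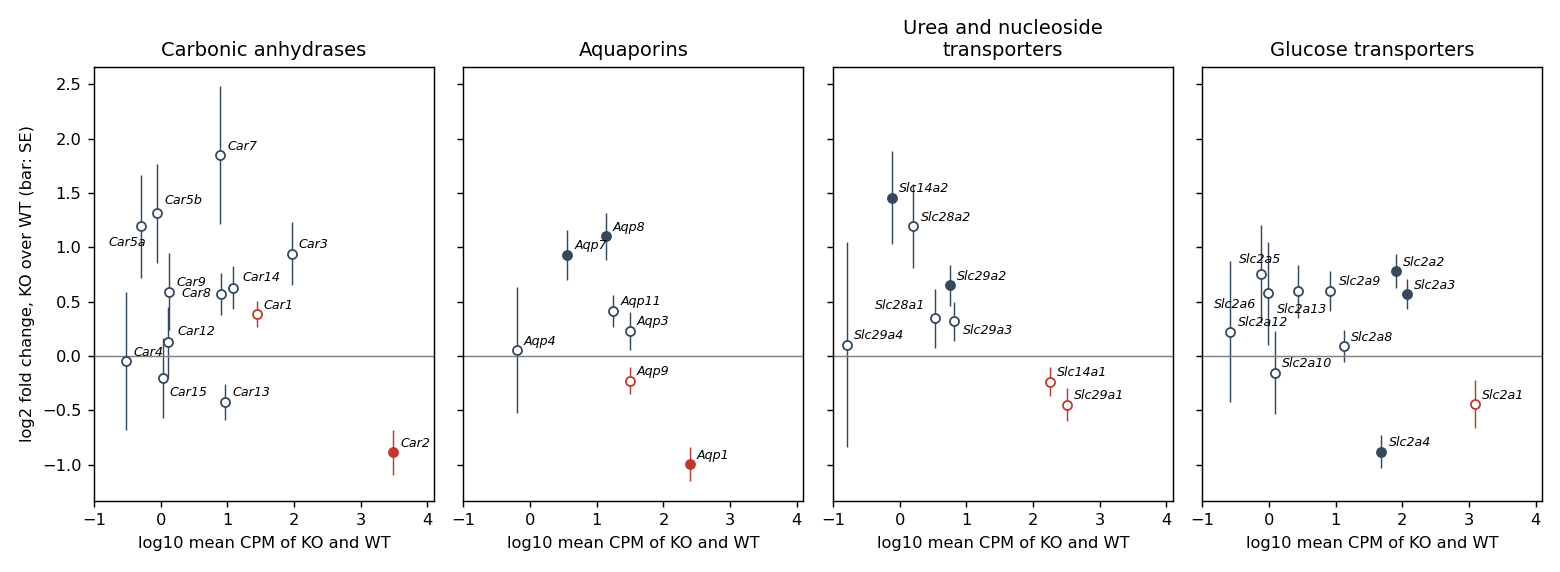
Log2 fold change of KO over WT (vertical axis, bars are standard errors) against the log10 of the mean CPM of both groups for the tested genes of each family, with the 7 members in red and filled points for adjusted p under 0.05. Car2 at -0.89, Aqp1 at -0.99 and Slc2a4 at -0.88 are the filled points below 0, and the most abundant gene of each family lies below 0.

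In the red cell membrane GLUT1 sits with stomatin, dematin and the adducins. Of 6 such genes 1 was lower and 0 higher, with a median of -0.43. The lower count was 5 with DESeq2, 3 with the replicate block, 2 with limma voom, with no filter, with reads summed over transcripts or with KO replicate 1 left out, and 0 with any other library left out. Add1, alpha-adducin, had 349 and 339 CPM in KO and 535 and 527 CPM in WT (0.649 of WT, edgeR adjusted p = 0.0181), and did not pass when KO replicate 2 or either WT library was left out (edgeR adjusted p up to 0.0712). Stom, stomatin, had 462 and 372 CPM in KO and 600 and 580 CPM in WT (edgeR adjusted p = 0.0554). Epb4.9, dematin, had 468 and 375 CPM in KO and 619 and 525 CPM in WT (edgeR adjusted p = 0.0963). Slc2a1 is also a target of hypoxia signalling, and of 12 other such targets 3 were higher (Ndrg1, Hk2 and Vegfa) and 1 lower (Pdk1), with a median of 0.18. The call of Vegfa ended when WT replicate 2 or KO replicate 2 was left out (edgeR adjusted p up to 0.0700), and the other 3 held.

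Other transporters of the red cell membrane moved in both directions. Of 20 tested, 6 were lower and 3 higher, with a median of -0.51, and the lower count ran between 1 and 11 when 1 library was left out and was 12 with DESeq2 or the replicate block. Slc4a1, the anion exchanger that passes the bicarbonate made by carbonic anhydrase II, had 7921 and 5945 CPM in KO and 10910 and 11450 CPM in WT, and did not pass (log2 fold change -0.69, SE 0.22, edgeR adjusted p = 0.0634). Rhag, the gas and ammonia channel of the Rh complex, had 584 and 468 CPM in KO and 930 and 893 CPM in WT (0.577 of WT, edgeR adjusted p = 0.0181), and Rhd, its partner, was at 0.592 of WT (edgeR adjusted p = 0.0404). Neither passed when KO replicate 2 or either WT library was left out (edgeR adjusted p up to 0.0611 for Rhag and 0.130 for Rhd). The lower genes also included the calcium pump Atp2b4, the glutamine carrier Slc1a5 and the glycine carrier Slc6a9. The calls of Atp2b4 (edgeR adjusted p up to 0.0808), Slc1a5 (up to 0.160) and Slc6a9 (up to 0.150) ended when WT replicate 1 or KO replicate 2 was left out, and that of Atp2b4 also when WT replicate 2 was.

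Potassium-chloride cotransporters set red cell volume together with water flow. Slc12a7 (KCC4) had 113 and 123 CPM in KO and 48.9 and 47.1 CPM in WT, rose 2.46-fold (log2 fold change 1.30, SE 0.11, edgeR adjusted p = 0.00415), and passed with any 1 library left out. Slc12a4 (KCC1) had 64.3 and 62.3 CPM in KO and 45.9 and 50.0 CPM in WT (1.32-fold, edgeR adjusted p = 0.0384), a call lost whichever library was left out (edgeR adjusted p up to 0.174). Both genes had KO libraries above both WT libraries. Abcc4, an exporter of organic anions, was the third higher gene, at 1.36-fold (edgeR adjusted p = 0.0396), and its call too was lost whichever library was left out (edgeR adjusted p up to 0.191).

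**Figure D3:**
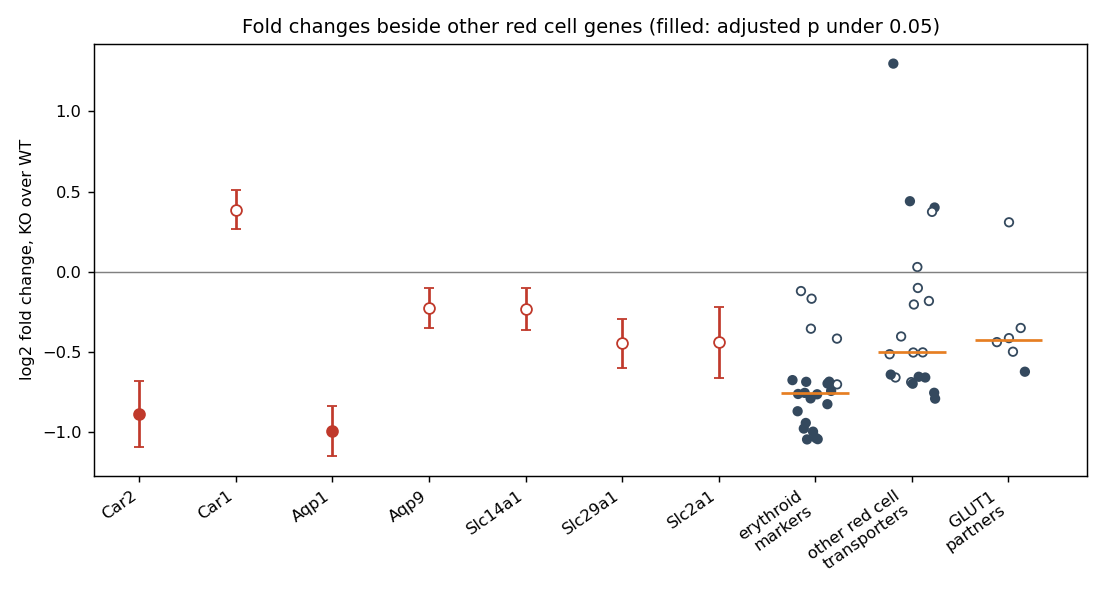
Log2 fold change of KO over WT (vertical axis) for the 7 genes, with standard errors, beside 22 erythroid markers, 20 other red cell transporters and 6 GLUT1 partners, with lines at list medians and filled points for adjusted p under 0.05. Aqp1 and Car2 lie in the lower part of the erythroid range of -1.05 to -0.12, and Car1 lies above the whole of it.

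Set against the erythroid markers, the 7 genes spread out. Of the 22 markers, 4 had a lower log2 fold change than Aqp1 and 6 a lower one than Car2. For Slc29a1 and Slc2a1 the number was 18 each, for Slc14a1 and Aqp9 it was 20 each, and for Car1 it was all 22. Per library, each gene's log2 CPM was then taken relative to the mean log2 CPM of the 22 markers, which was 8.91 and 8.56 in KO and 9.51 and 9.45 in WT. On this relative scale Car2 was at 2.37 and 2.31 in KO and 2.55 and 2.43 in WT, a difference of -0.16, and Aqp1 was at -1.36 and -1.41 in KO and -1.10 and -1.13 in WT, a difference of -0.27. Car1 was at -4.02 and -3.54 in KO and -4.96 and -4.86 in WT, a difference of 1.13. The relative difference was 0.52 for Aqp9, 0.51 for Slc14a1, 0.29 for Slc29a1 and 0.27 for Slc2a1. Each of the 7 genes has an exact two-sided permutation p of 0.33, the smallest that 2 against 2 can give. The marker mean itself differed by -0.743 (KO minus WT), so a gene of equal CPM in both groups would lie above WT on this scale. Thus a gene below WT in CPM, such as Slc14a1, was above WT relative to the red cell markers, and only Car2 and Aqp1 stayed below WT on both scales. With 4 of the markers in place of 22, Car2 differed by -0.035 and Aqp1 by -0.14.

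**Figure D4:**
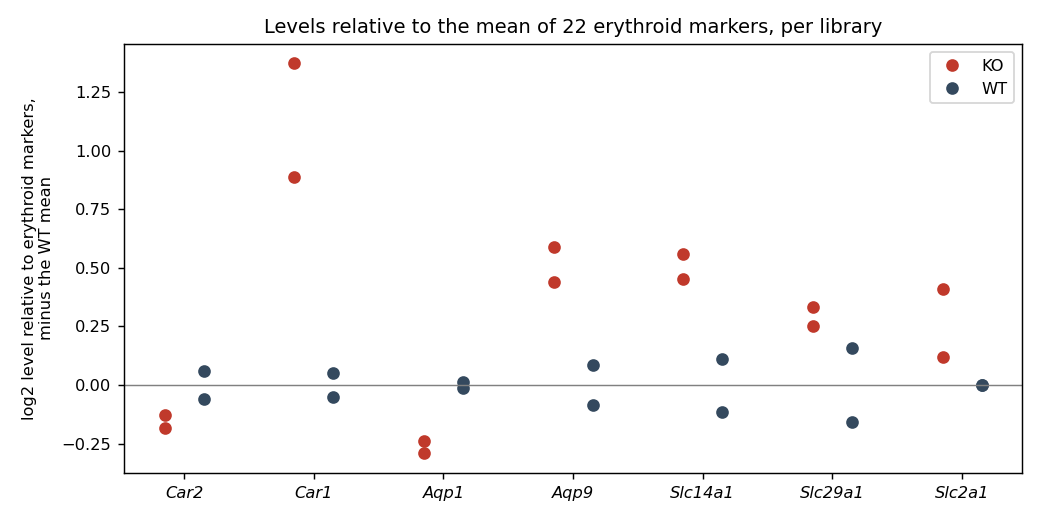
Log2 CPM of each gene relative to the mean of 22 erythroid markers, shown minus the WT mean (vertical axis), in the KO libraries (red, left) and WT libraries (blue, right). Car1 lies highest in KO, with a KO minus WT difference of 1.13, and Car2 and Aqp1 lie below WT, with differences of -0.16 and -0.27.

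Splicing was read through junction usage, which sets the reads across each splice junction against those of the gene's other junctions. By edgeR's diffSpliceDGE test over 105434 junctions, 4 passed (0.00379%) and 2597 had an unadjusted p under 0.05. Of 54 junctions tested in the 7 genes 0 passed, and 0 had an unadjusted p under 0.05. Without KO replicate 2, 1 did. Estimates of usage in Car1 ran between -0.45 and 0.55 on the log2 scale, and in Aqp1 between -0.68 and 0.052, over 3 junctions.

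At the paired donors of Slc29a1 both printed forms were read in each library. The deposited tables list these donors at 45725945 for the longer and 45725951 for the shorter form, in their own build, and they were matched to the exon by their spacing of 6 bases. The longer form, with GTAAAG, made up 28.8% of reads in KO replicate 1 (101 of 351, exact 95% interval 24.1% to 33.8%) and 34.1% in KO replicate 2 (91 of 267, 28.4% to 40.1%). In WT it made up 34.2% in replicate 1 (91 of 266, 28.5% to 40.3%) and 30.1% in replicate 2 (154 of 512, 26.1% to 34.3%). The groups overlapped, with means of 31.4% ± 3.75 in KO and 32.1% ± 2.92 in WT (SD, n = 2 each), and the shorter form was the major one throughout. These intervals are Clopper-Pearson intervals and cover counting error only.

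A junction listed as putative, from 45730381 to 45732431 on chromosome 17, joined the 5′ part of Slc29a1 to an exon that the known junction from 45729210 to 45732431 skips. It took 49.4% and 54.6% of the reads of the pair in KO and 52.3% and 50.2% in WT, with 176, 141, 86 and 265 reads behind KO replicates 1 and 2 and WT replicates 1 and 2. The known junction that leaves the same exon, from 45729210 to 45730281, gave a lower share against the same skipping junction, with 43 of 132 and 26 of 90 reads in KO and 18 of 59 and 71 of 203 reads in WT (30.7% ± 2.61 in KO and 32.7% ± 3.16 in WT, SD, n = 2 each). The groups overlapped by both measures, which differed from each other in every library, so the level of inclusion is uncertain. The transcript used here for Slc29a1 begins at 45730589, ahead of the junction that leaves this exon. Reads of that junction can therefore come from transcripts that start there as well as from inclusion. Such reads add to the share from the leaving junction, which was the lower share in every library. The cause of the difference between the measures was not tested. In Car2 a putative junction that skips an exon, from 14888031 to 14895535 on chromosome 3, had 0 and 4 reads in KO and 7 and 12 reads in WT. That is 0% (0 of 785, upper limit 0.469%) and 0.549% in KO and 0.632% and 0.827% in WT of it and the junction into that exon. Against the junction out of that exon, from 14895140 to 14895535, the same reads were 0% (0 of 43, upper limit 8.22%) and 10.3% (4 of 39) in KO and 15.6% (7 of 45) and 14.0% (12 of 86) in WT, so the size of this share depends on the junction it is set against. The shares from the junctions out of these exons of Slc29a1 and Car2 were added after the others had been seen. Usage of the Car2 skipping junction did not pass the test (log2 -1.55, unadjusted p = 0.171).

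**Figure D5:**
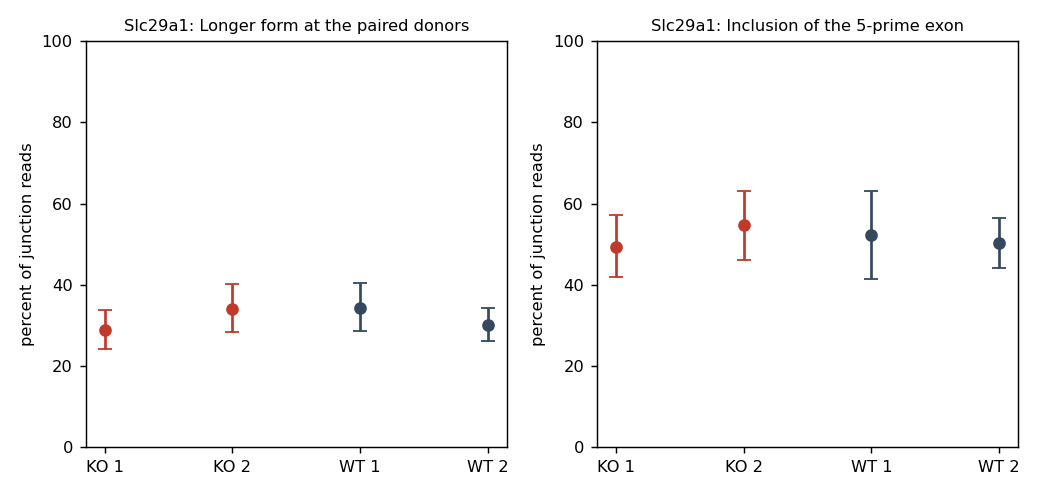
Share of junction reads (vertical axis, percent, from 0 to 100) in each KO and WT library for the longer form at the paired donors of Slc29a1 (left) and for inclusion of the 5′ exon, counted from the junction entering it (right), with exact 95% intervals. The longer form lies between 28.8% and 34.2% and exon inclusion between 49.4% and 54.6%, with KO and WT points intermixed.

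The genes whose pattern over the 4 libraries was most like that of each member were found among 11245 genes by the Euclidean distance between log2 CPM values centred on each gene's mean. For Car2 the nearest was Slc2a4 (distance 0.0093), followed by Ska1. For Aqp1 they were 1190002H23Rik (0.0391) and Dnase1l1, and for Car1 they were Adamts5 (0.0124) and Tle1. The nearest to Aqp9 was Sav1 (0.0119), to Slc14a1 Ppm1l (0.0271), to Slc29a1 4833442J19Rik (0.0357) and to Slc2a1 Gm16517 (0.066). With 4 libraries in 2 groups, such likeness is a description of few values.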

How the data were processed

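RNA sequencing libraries of fetal liver cells (2 KO, 2 WT) were read from tables that the authors deposited per library. Per the labels' protocols, RNA depleted of ribosomal RNA was cut with RNase III, selected at 150 to 300 bp and amplified for 12 PCR cycles, and 2 libraries shared each of 2 slides. Which ones did is not given, so slide and genotype cannot be told apart. Per the file headers, the deposited raw counts are primary alignments of mapping quality of at least 10 per RefSeq transcript. The deposited RPKM and reads per nucleotide (a coverage signal) follow from those counts in 100% of rows, to a tolerance of 0.0001, and entered no test. Junction tables hold the authors' raw counts of reads per junction. The sources used here name no aligner or build, and gene coordinates are not those of GRCm38, since 138 of 19487 genes compared had the same start and end. Counting by strand is not stated, but no other gene in the tables overlaps any of the 7. Reads on the transcripts used numbered 47700336 and 48162919 in KO and 33738843 and 56895360 in WT, so that counting error is small for all 7 genes.

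From 28283 transcript rows, 1 transcript per gene was kept. Gene counts were tested with edgeR 4.0.16 in R 4.3.3 (quasi-likelihood, TMM, filterByExpr, Benjamini-Hochberg over 15028 genes, threshold adjusted p 0.05). CPM are on TMM-scaled library sizes, and SE is the log2 fold change over the square root of F. Junctions with at least 10 reads were tested with diffSpliceDGE. Both fits were also run on simulated counts with a fixed spread, which cannot show how they perform at the spread of these libraries. Alternatives were RLE and upper quartile scaling, no filter beyond 1 read, DESeq2 1.42.0, limma 3.58.1 (voom), reads summed over transcripts, each library left out and a replicate block, and for junctions a minimum of 50 reads or known junctions alone. The labels name no litter, and p-values reflect only how these 4 libraries vary. The 7 members, the gene lists (other family members, red cell transporters, GLUT1 partners, nucleoside salvage, hypoxia targets and cell type markers) and the tests were chosen with earlier results of these data known. The text may name any gene of the family lists, the 2 genes of smallest p of each marker list, Hnrnpl, and the 2 genes nearest to each member in pattern. Xist, Ddx3y and some cardiac markers are named besides, chosen after their values were seen, and some genes under this rule are not reported here. Of the listed symbols, 1 matched no gene.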

Additional observations from a re-analysis of the deposited data

How the results depend on the processing

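The directions of the 7 genes held in all 11 alternative fits, and no scaling moved the median of all genes by more than 0.1 on the log2 scale. Aqp1 kept its call throughout. Car2 kept it except with 1 library left out, where its log2 fold change ran between -1.11 and -0.70 (edgeR adjusted p of 0.0155 to 0.0843). Car1 passed with upper quartile scaling (0.41, adjusted p = 0.0474), no filter (0.40, adjusted p = 0.0386) and the replicate block (0.39, adjusted p = 0.0405), so that 1 member was then higher. Slc29a1 passed with no filter (-0.44, adjusted p = 0.0330) and in DESeq2 (-0.46, adjusted p = 0.0215). Slc2a1 ran between -0.80 and -0.16 with 1 library left out. The lower members then numbered 1 to 3, and genes past the threshold 641 to 1307 higher and 338 to 1185 lower. Left-out libraries gave 1 higher glucose transporter, 1 higher red cell transporter and 1 to 11 lower ones, and 7 to 18 lower erythroid markers. Lower red cell transporters numbered 11 with no filter, 12 in DESeq2 and 12 with the replicate block. With 4 erythroid markers, the relative difference was -0.035 for Car2, -0.143 for Aqp1 and 0.636 for Aqp9. The causes were not tested.

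The number in the deposited file names served as the replicate block, under which 2342 genes were higher and 1999 lower. With only 2 pairs, and labels that do not say what the number marks, the samples share only a number (correlation of deviations 0.1352). An arm left with 1 library was assumed to vary like the other. With 2 libraries a group, differences of the size seen in Aqp9 and Slc14a1 were not detectable.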

Other observations

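Blood cell markers outside the red cell line also differed between the genotypes. Of 12 granulocyte markers 7 were higher and 0 lower in KO, with a median log2 fold change of 0.91. Estimates were above 0 for 10 of them and below 0 for 2. With no filter on low counts or with the replicate block, 9 were higher and 1 lower. Fewer were higher when either WT library was left out, and some were lower when KO replicate 1 was. The median ran between 0.552 and 1.009 with 1 library left out. Mpo, myeloperoxidase, had 365 and 325 CPM in KO and 118 and 131 CPM in WT (log2 fold change 1.47, edgeR adjusted p = 0.00415), and passed with any 1 library left out. Of 10 tested macrophage markers 1 was higher and 2 lower, with a median of -0.37. The lower count was 3 with WT replicate 2 left out or with DESeq2, 4 with KO replicate 1 left out or with no filter and 6 with the replicate block. The higher count was 0 with WT replicate 2 or KO replicate 2 left out and 2 with no filter or the replicate block, and the median ran between -0.616 and -0.106 with 1 library left out. Clec4f, a lectin of liver macrophages, had 1.46 and 0.741 CPM in KO and 9.503 and 8.06 CPM in WT. In the erythroid list, alpha spectrin (Spna1) had 481 and 408 CPM in KO and 887 and 948 CPM in WT.

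Heart muscle genes, which are no genes of the liver, were higher in the WT libraries, most of all in WT replicate 2, and low in KO. Their sum was 8.71 and 10.7 CPM in KO and 67.7 and 346 CPM in WT, with 11 of 12 lower. The lower count was 8 with WT replicate 2 or KO replicate 1 left out, 7 with KO replicate 2 left out and 6 with limma voom. Ryr2, the calcium release channel, had 3.76 and 2.87 CPM in KO and 4.33 and 7.52 CPM in WT, Actc1, cardiac actin, had 1.504 and 3.18 CPM in KO and 18.3 and 135 CPM in WT, and Myl4, an atrial myosin light chain, had 0.543 and 0.819 CPM in KO and 17.2 and 22.6 CPM in WT. The summed level of the list was far below the 3266 to 6604 CPM of the 7 genes described here, and its part in them was not tested.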
